A study of Arabidopsis thaliana with 6 samples.

Results

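Beta-glucosidase (BGLU) and serine carboxypeptidase-like (SCPL) genes of Arabidopsis were compared between wild-type leaves and leaves of a mutant in the chromatin-remodelling genes CHR11 and CHR17. The members were all genes whose symbol in the probe table is BGLU or SCPL in capitals followed by a number, each read from a probe set that lists that gene alone. The rule gave 26 genes, 20 BGLU and 6 SCPL, of 13350 genes with such a probe set. A further 23 serine carboxypeptidase-like genes are spelled in lower case (scpl) in the same table, so the rule did not take them, and they are described separately. The gene table of the TAIR10.1 assembly names 47 BGLU and 51 SCPL genes by symbol or synonym, in any spelling. Apart from PYK10 and ATA27, beta-glucosidase genes described below, the others were not analysed here.

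RNA was measured on 6 ATH1 arrays with 1 colour each, 3 per genotype: Col-0 as wild type, and plants with both chr11-1 and chr17-1. Leaves were taken at 15 days of age from plants grown without treatment under 16 h of light and 8 h of dark. CHR11 and CHR17 encode ATPases of the ISWI type, which slide nucleosomes along DNA, and the mutant carries the chr11-1 and chr17-1 alleles together. The labels name no other allele or agent, and nothing in them tells if the 3 samples of a genotype were separate plants or pools. The p-values therefore cover only the spread seen between samples, which may be technical.

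Beta-glucosidases of this family remove a sugar from small glucosides that plants store in inactive form. In leaves and roots such cleavage is known to release hormones, defence compounds and building blocks of lignin, and the myrosinases that break down glucosinolates belong to the same enzyme family. Serine carboxypeptidase-like proteins share the fold of carboxypeptidases. Some cut amino acids from the ends of proteins, while others, such as the sinapoyltransferases SNG1 and SNG2, move an acyl group from a glucose ester to another molecule.

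Levels are given on the log2 scale for each probe set, so a difference of 1 is a 2-fold change. Precision is limited by how few arrays there were. Array medians were 4.73 to 4.77. Within a genotype, arrays correlated at a Pearson's r of 0.993 to 0.997 over probe sets (not independent of each other), and between genotypes at 0.970 to 0.972. Of the 64 control probe sets on the array, 56 had their higher mean in the mutant (median difference 0.22, log2 scale), and values were not rescaled to them. Mutant replicate 1 stood apart in the control for 25S ribosomal RNA, at 8.90 where the other mutant arrays both had 10.85 and wild type 10.32 to 10.49, so results that change without that array are given both ways. CHR17 (AT5G18620) read 4.57, 4.92 and 4.84 in wild type against 5.33, 4.91 and 5.11 in the mutant, a difference of 0.34 that did not pass (limma adjusted p = 0.0832) except without mutant replicate 2 (0.44, 0.0406). Whether its probe set lies in the disrupted part of the gene is not stated, so it does not check the labels, and CHR11 was not analysed here. Of the leaf markers, LHCB4.2 and RCA were measured, with wild-type means of 12.95 and 13.90, far above the array medians.

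Leaves of the double mutant had higher signal for BGLU16, BGLU25, BGLU40 and SCPL34 and lower signal for BGLU33 and SCPL49. SCPL34 had the largest change, a 2.08-fold rise. BGLU33, reported to release abscisic acid from its stored glucose ester, fell 1.90-fold. These 6 of 26 members passed limma at a Benjamini-Hochberg adjusted p below 0.05 over all 22746 probe sets, 4 higher and 2 lower. BGLU25 passed in 9 and BGLU40 in 10 of 13 alternative settings, and the others in all 13. Over all probe sets the share past the test was 28.6%, with 14% higher and 14.7% lower, so the members' 23.1% was not above the background. The genotypes did not overlap in 6 members, against 39.5% of all probe sets. The median log2 difference of the 26 was 0.02, beside -0.0028 over all probe sets.

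**Figure D1:**
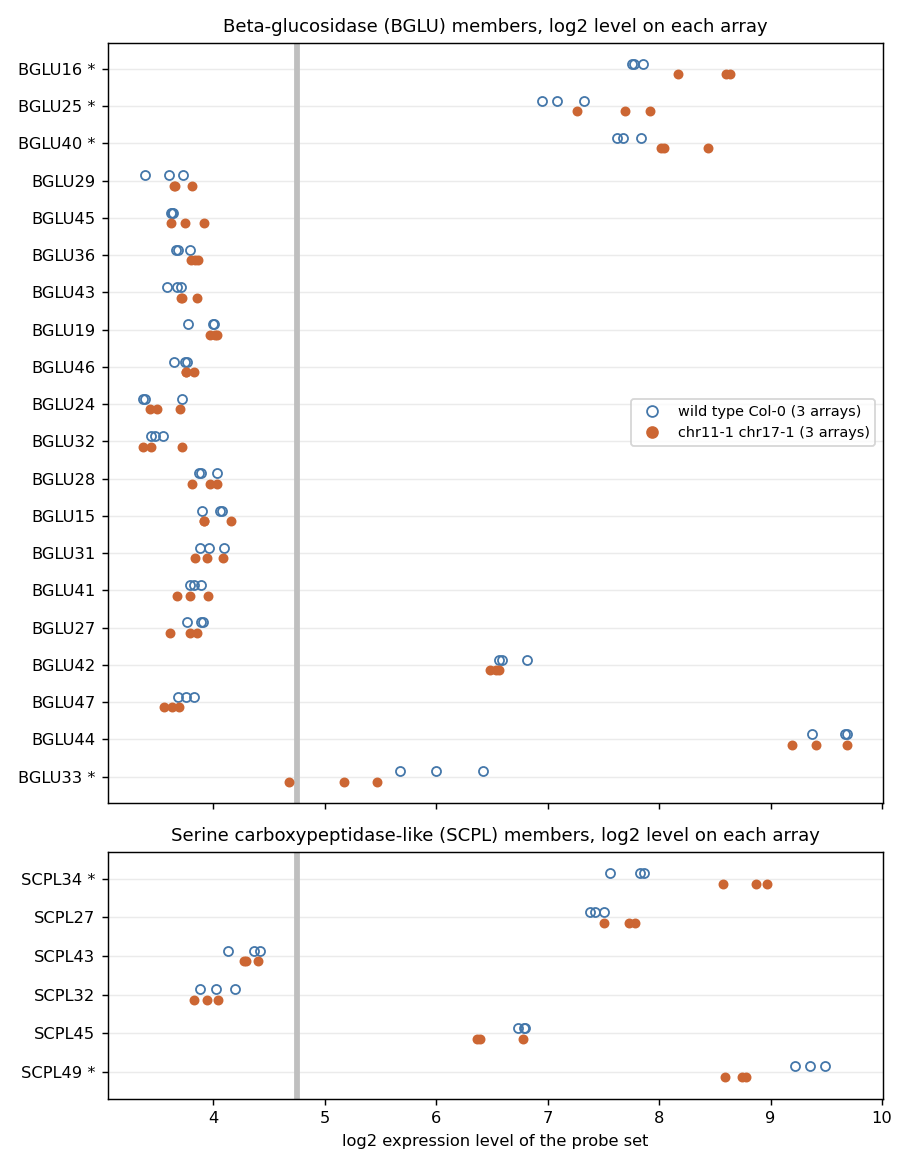
Log2 expression level on each array for the 20 BGLU members (upper panel) and the 6 SCPL members (lower panel), with open circles for the 3 wild-type arrays and filled circles for the 3 mutant arrays. The grey band spans the array medians (4.73 to 4.77), genes are ordered by their difference, and a star marks the 6 genes past the limma test, all of them to the right of the band in wild type.

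The members fell into a dim and a bright set with a gap between them. In 16 of the 26 the mean of the 6 arrays was 4.32 or less, below every array median, and in the other 10 it was 5.57 or more. The dim set held 14 BGLU and 2 SCPL genes, and 15 of the 16 lay in the lowest 3 deciles of all probe sets by level. None of the 16 passed limma (lowest adjusted p = 0.356), and 0 had an unadjusted p below 0.05. Among probe sets not above the array medians 8.3% passed, and such dim signal cannot show whether a transcript was unchanged. Of the 10 bright members 6 passed, beside 49% of all probe sets above the array medians. By direction, 4 were higher and 2 lower, beside 24% and 25% of those probe sets.

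**Figure D2:**
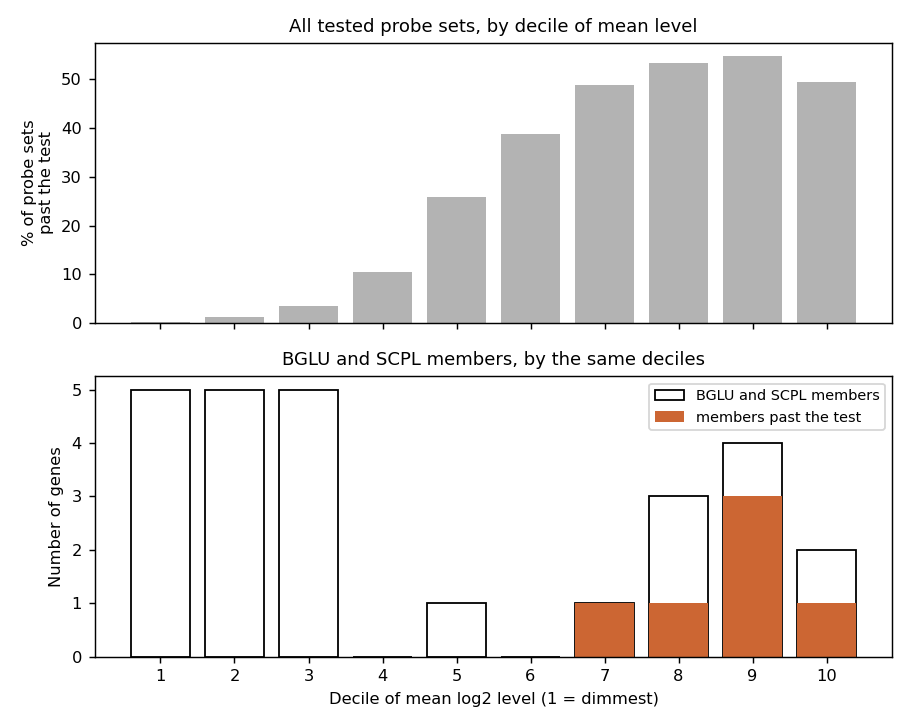
Upper panel, the percentage of all tested probe sets past the limma test in each decile of the mean log2 level, from the dimmest (1) to the brightest (10). Lower panel, the number of BGLU and SCPL members (outlined) and of members past the test (filled) in the same deciles. The 6 genes past the test all lie in deciles 7 to 10, where 48.7% to 54.7% of all probe sets passed.

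Among the beta-glucosidases, BGLU16 (AT3G60130) had log2 levels of 7.76, 7.77 and 7.85 in wild type against 8.63, 8.60 and 8.17 in the mutant. The 3 mutant arrays all lay above the 3 wild-type arrays, with the third mutant array nearest to them. The mean rose from 7.79 ± 0.05 to 8.47 ± 0.26 (SD, n = 3), by 0.67 (SE 0.13; limma adjusted p = 0.00228), or 1.59-fold. It passed the test in all 13 alternative settings, with differences of 0.59 to 0.82.

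BGLU40 (AT1G26560) read 7.62, 7.68 and 7.84 in wild type against 8.05, 8.44 and 8.01 in the mutant. The groups did not overlap, and the second mutant array was the highest. The mean rose from 7.71 ± 0.11 to 8.17 ± 0.23 (SD, n = 3), by 0.45 (SE 0.12; limma adjusted p = 0.0189), or 1.37-fold. Leaving out wild-type replicate 1 ended the call (0.41, limma adjusted p = 0.0629), as did leaving out wild-type replicate 2 (0.44, 0.0671) and mutant replicate 2 (0.32, 0.0625).

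BGLU25 (AT3G03640) read 6.95, 7.32 and 7.09 in wild type against 7.92, 7.69 and 7.27 in the mutant. The third mutant array lay below the second wild-type array, so the groups overlapped. The mean rose from 7.12 ± 0.19 to 7.63 ± 0.33 (SD, n = 3), by 0.51 (SE 0.16; limma adjusted p = 0.0372), or 1.42-fold. This was the weakest of the 6 calls. It ended when wild-type replicate 1 was left out (0.42, limma adjusted p = 0.122), and also for wild-type replicate 3 (0.49, 0.0996), mutant replicate 1 (0.36, 0.112) and mutant replicate 2 (0.47, 0.112).

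BGLU33 (AT2G32860) was the single beta-glucosidase that fell. Its log2 levels were 5.68, 6.42 and 6.0 in wild type against 5.47, 4.68 and 5.17 in the mutant. The groups did not overlap, although the first array of each genotype lay close together, and the second mutant array fell below the array medians. The mean went from 6.03 ± 0.37 to 5.11 ± 0.40 (SD, n = 3), a change of -0.93 (SE 0.21; limma adjusted p = 0.00765). The spread of BGLU33 within a genotype was wider than that of 99.4% of probe sets above the array medians. Its call held in all 13 alternative settings, with changes of -1.11 to -0.71.

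The remaining bright beta-glucosidases did not pass. BGLU44, whose protein acts on beta-mannosides in vitro, read 9.37, 9.69 and 9.67 in wild type against 9.41, 9.19 and 9.69 in the mutant. The groups overlapped, and the difference was -0.14 with a 95% interval of -0.45 to 0.16. BGLU42, known from roots for its part in the release of coumarins under low iron, read 6.82, 6.56 and 6.59 in wild type against 6.57, 6.54 and 6.48 in the mutant, a difference of -0.13 with an interval of -0.35 to 0.09. Neither interval reaches a 2-fold change, while smaller differences lie within them.

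Several of the dim beta-glucosidases have known roles outside resting leaves. BGLU45 and BGLU46 act on glucosides of lignin precursors, BGLU15 takes part in flavonol glycoside breakdown, and BGLU28 is induced when sulfur is short. Their log2 differences were 0.13, 0.06, -0.02 and 0.0053, and none passed limma (adjusted p from 0.404 to 0.982). The wild-type means of the 14 dim BGLU genes lay between 3.49 and 4.02, and their differences between -0.13 and 0.13. BGLU36 alone among them had non-overlapping groups, with a difference of 0.12 (limma adjusted p = 0.386). The others were BGLU47 (-0.13), BGLU27 (-0.10), BGLU41 (-0.03), BGLU31 (-0.02), BGLU32 (0.02), BGLU24 (0.05), BGLU19 (0.08), BGLU43 (0.11) and BGLU29 (0.13).

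Among the serine carboxypeptidase-like members, SCPL34 (AT5G23210) read 7.83, 7.86 and 7.56 in wild type against 8.57, 8.87 and 8.97 in the mutant. Every mutant array lay well above every wild-type array. The mean rose from 7.75 ± 0.16 to 8.81 ± 0.21 (SD, n = 3), by 1.05 (SE 0.13; limma adjusted p = 0.000123). SCPL34 was the single member that both passed and changed at least 2-fold, beside 5.02% of all probe sets. Its difference was larger in size than that of 95.6% of all probe sets, and it passed in all 13 alternative settings (0.96 to 1.17).

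SCPL49 (AT3G10410), listed in the gene table also as carboxypeptidase Y, read 9.22, 9.49 and 9.36 in wild type against 8.78, 8.59 and 8.74 in the mutant. The mutant arrays lay close together, and all were below the wild-type arrays. The mean fell from 9.36 ± 0.14 to 8.71 ± 0.10 (SD, n = 3), a change of -0.65 (SE 0.10; limma adjusted p = 0.000757), or 1.57-fold lower. This call held in all 13 alternative settings, with changes of -0.72 to -0.58.

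SCPL27 and SCPL45 were bright and lay near the threshold. SCPL27 read 7.43, 7.51 and 7.38 in wild type against 7.73, 7.51 and 7.78 in the mutant, a difference of 0.23 (limma adjusted p = 0.119). Without mutant replicate 2, the array in which SCPL27 was level with wild type, it was 0.32 and passed (limma adjusted p = 0.0491). SCPL45 read 6.79, 6.80 and 6.74 in wild type against 6.78, 6.39 and 6.36 in the mutant, a difference of -0.26 (limma adjusted p = 0.140). Without mutant replicate 1, in which SCPL45 had its wild-type level, it was -0.40 and passed (limma adjusted p = 0.0102). The dim SCPL32 and SCPL43 had differences of -0.09 and 0.02.

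The 23 serine carboxypeptidase-like genes spelled in lower case included larger changes, mostly falls. Of these 23, 6 passed limma, 2 higher and 4 lower, a share of 26.1% beside 28.6% of all probe sets. They held the same kind of dim set, with 14 genes not above the array medians and 0 of those past the test (2 at an unadjusted p below 0.05). No role is given here for these genes.

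The largest fall in either family was that of scpl20 (AT4G12910), which read 7.70, 7.78 and 7.80 in wild type against 5.51, 5.42 and 5.48 in the mutant. The groups were far apart and each was tight. The change was -2.29 (SE 0.09; limma adjusted p = 3.95e-08), or 4.89-fold lower. A fall of nearly that size was seen in scpl29 (AT4G30810), from 8.93, 8.96 and 8.72 to 6.95, 6.90 and 6.90 (-1.95, SE 0.10; limma adjusted p = 2.8e-07). Again no mutant array came near wild type. The gene scpl35 (AT5G08260) went from 9.38, 9.45 and 9.53 to 8.23, 7.52 and 7.86, lower in all 3 mutant arrays but with more spread among them (-1.58, SE 0.16; limma adjusted p = 3.55e-05).

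At a lower level, scpl50 (AT1G15000) fell from 5.94 ± 0.02 to 4.99 ± 0.18 (SD, n = 3), a change of -0.95 (limma adjusted p = 6.87e-05). The rises were smaller than these falls. The gene scpl48 (AT3G45010) rose from 7.38 ± 0.05 to 8.04 ± 0.10 (SD, n = 3), by 0.66 (limma adjusted p = 0.000347). The gene scpl26 (AT2G35780) rose from 8.86 ± 0.06 to 9.30 ± 0.05 (SD, n = 3), by 0.44 (limma adjusted p = 0.00297). All 6 of these calls held in all 13 alternative settings. The bright genes scpl25 (0.30), scpl42 (0.29) and scpl46 (-0.17) did not pass, although scpl42 did so once wild-type replicate 2 was left out (0.42, limma adjusted p = 0.0295).

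**Figure D3:**
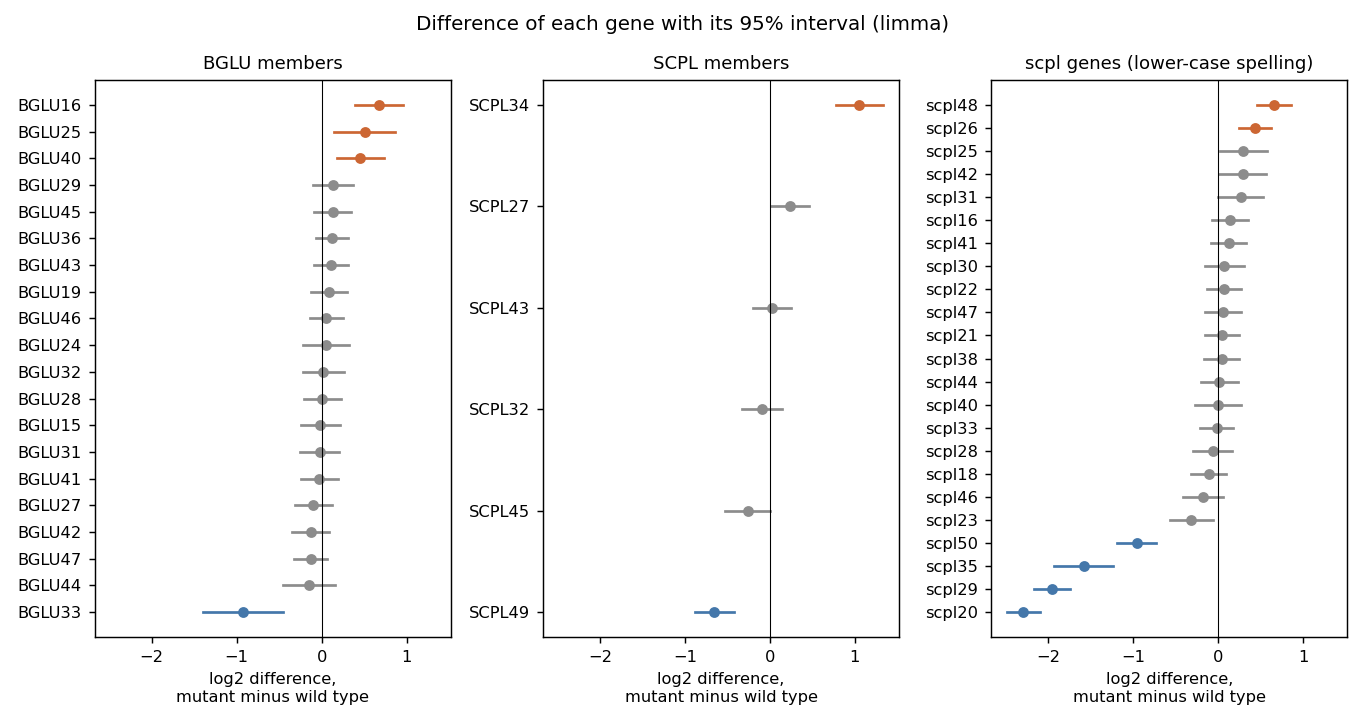
Log2 difference (mutant minus wild type) of each gene with its 95% interval from limma, for the BGLU members, the SCPL members and the lower-case scpl genes. Orange marks genes higher and blue genes lower past the test, grey the others; the falls of scpl20, scpl29 and scpl35 (-2.29, -1.95 and -1.58) exceed that of any capitalised member, of which BGLU33 (-0.93) is the lowest.

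Compared as families, 4 of 20 BGLU genes (20%) and 2 of 6 SCPL genes (33.3%) passed the test. Among bright genes it was 4 of 6 and 2 of 4, beside 49% of all probe sets above the array medians. With symbols read in any case the SCPL family had 29 genes, of which 3 were higher and 5 lower (27.6%), and 8 of its 13 bright genes passed. The median size of change was 0.11 for BGLU, 0.25 for the 6 SCPL genes and 0.17 for the 29, beside 0.15 over all probe sets. These medians depend on the share of dim genes, which was 14 of 20 in BGLU and 2 of 6 in SCPL. Among bright genes alone the medians were 0.48 for BGLU, 0.46 for SCPL and 0.65 for SCPL in any case. Over all probe sets above the array medians it was 0.33. Changes past the test of at least 2-fold were found in 0 BGLU genes (4 passed the test at any size) and 4 of the 29 SCPL genes, beside 5.02% of all probe sets. PYK10 and ATA27, beta-glucosidase genes under other symbols, were not counted here, and neither passed. The difference between the families was not tested.

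Tandem members, family genes next to each other on a chromosome, were compared by the change in their log2 ratio on each array. Pairs with at most 1 annotated gene between them were used, and limma was fitted to all 10216 such pairs of measured genes, of which 33.4% passed the test. Probe sets differ in brightness for the same amount of RNA, so the level of a gene cannot be set against that of its neighbour. A difference in the ratio bears on unequal change only where both genes are above the array medians, and in none of the tandem pairs below was that so. The ratio differences are therefore given as values, and a ratio to a dim gene mostly repeats the bright gene's own difference. There were 5 such pairs of BGLU members and 0 of capitalised SCPL members. Of the 5 pairs 1 passed the test.

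That pair was BGLU27 and BGLU16, direct neighbours on chromosome 3. The dim BGLU27 read 3.91, 3.89 and 3.77 in wild type against 3.86, 3.79 and 3.61 in the mutant, overlapping between the genotypes. The log2 ratio of BGLU16 to BGLU27 had a difference of 0.77 (SE 0.14; limma adjusted p = 0.00066 over the pairs), of which 0.67 was the rise of BGLU16 itself. Whether BGLU27 changed cannot be read from a probe set this dim. BGLU43 and BGLU44, also on chromosome 3, were likewise a dim and a bright neighbour. BGLU43 read 3.71, 3.67 and 3.59 in wild type against 3.71, 3.72 and 3.86 in the mutant, where the first mutant array was level with the highest wild-type array. The log2 ratio of BGLU44 to BGLU43 had a difference of -0.25 (SE 0.16; limma adjusted p = 0.268).

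In the other tandem groups every gene was dim in both genotypes. In the run on chromosome 2, BGLU15 read 4.06, 3.90 and 4.08 in wild type against 3.91, 4.16 and 3.92 in the mutant. BGLU28 beside it read 4.04, 3.89 and 3.87 in wild type against 3.97, 3.81 and 4.03 in the mutant, and BGLU29 read 3.60, 3.39 and 3.72 in wild type against 3.65, 3.65 and 3.81 in the mutant. The genotypes overlapped in all 3 genes. The ratio of BGLU28 to BGLU15 had a difference of 0.02 (limma adjusted p = 0.946), that of BGLU29 to BGLU28, a difference of 0.13 (0.577), and that of BGLU32 to BGLU31 on chromosome 5 a difference of 0.05 (0.877). On chromosome 5, BGLU31 read 3.88, 4.10 and 3.96 in wild type against 4.08, 3.84 and 3.95 in the mutant, and BGLU32 read 3.45, 3.55 and 3.48 in wild type against 3.44, 3.72 and 3.37 in the mutant. Both overlapped between the genotypes. BGLU45 and BGLU46 on chromosome 1 have 2 annotated genes between them, so they count as a pair in the wider setting alone, with -0.08 (limma adjusted p = 0.751). Signal this low limits what these ratios can show.

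Of the lower-case genes, scpl28 and scpl26 are direct neighbours on chromosome 2. The dim scpl28 had a difference of -0.06 and the bright scpl26 rose by 0.44, so the difference of 0.50 in their log2 ratio (SE 0.14; limma adjusted p = 0.013) mostly repeats scpl26. The genes scpl22 and scpl23 were both dim, and neither passed alone (0.07 and -0.31). Their log2 ratio had a difference of -0.38 (SE 0.14; limma adjusted p = 0.0463), which did not pass when any single array was left out (limma adjusted p from 0.0542 to 0.153), with array weights (0.0577) or with the replicate block (0.103). The genes scpl41 and scpl42 on chromosome 5, with 2 genes between them, had a ratio difference of 0.17 (limma adjusted p = 0.516) in the wider setting.

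**Figure D4:**
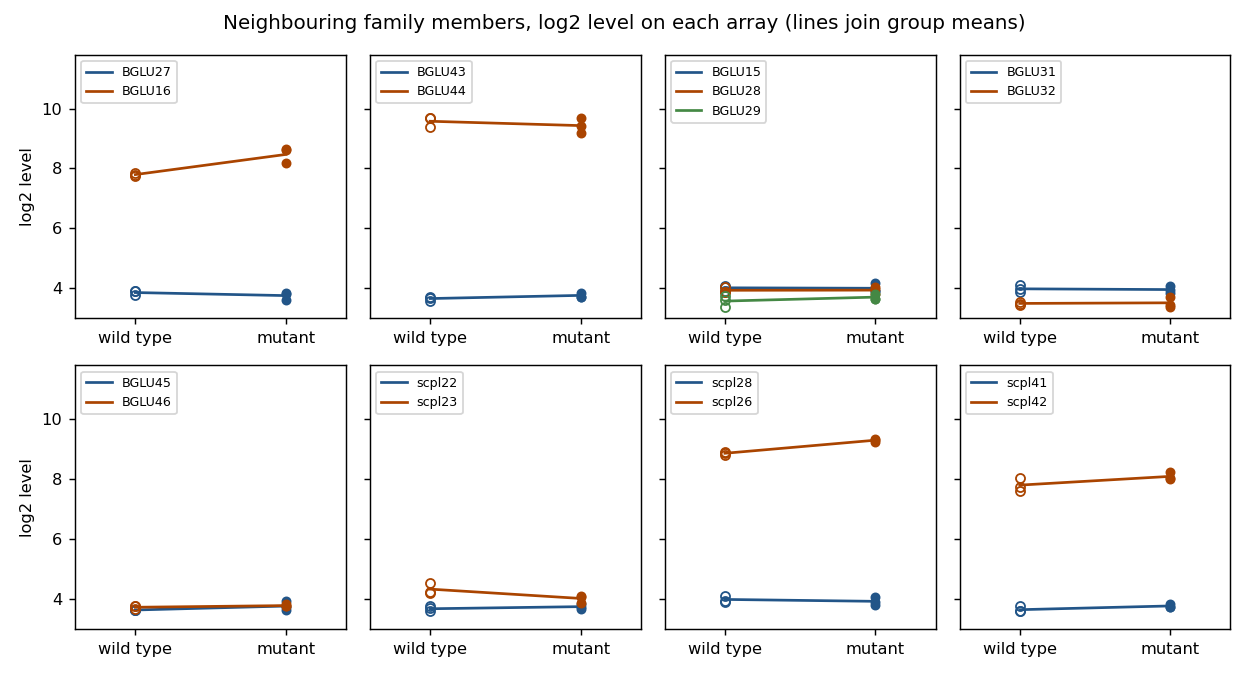
Log2 level on each array of neighbouring family genes, with open circles for wild type, filled circles for the mutant and lines joining group means; each panel is 1 tandem group. In the groups BGLU27/BGLU16, BGLU43/BGLU44, scpl28/scpl26 and scpl41/scpl42 a dim gene lies beside a bright one, and no group holds more than 1 gene above the array medians (4.73 to 4.77).

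Measured genes beside the changed members were also examined. Of the 6 members past the test, 4 had a named, measured neighbour with at most 1 gene between. None of these 6 neighbours passed limma, and 2 had an unadjusted p below 0.05. The background was 28.6% past limma, and 8245 of 22746 tested probe sets had an unadjusted p that low. BGLU27, AT3G03620 and AT3G60110 were dim neighbours, and dim probe sets passed at a rate of only 8.3%. So few genes cannot show whether changes stop at the members. AT2G32850, next to BGLU33, had a difference of -0.33 (limma adjusted p = 0.0510), in the direction of BGLU33, and it passed in 3 of 13 alternative settings. The ratio of BGLU33 to AT2G32850 had a difference of -0.59 that did not pass (limma adjusted p = 0.0687), with both genes above the array medians in wild type. It did pass without the lowest 30% of probe sets (0.0375), with the trended prior (0.0477), with array weights (0.0128), and without wild-type replicate 1 (-0.88, 0.00422) or mutant replicate 1 (-0.77, 0.0271).

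AT1G26580, near BGLU40, had 0.33 (limma adjusted p = 0.0738), and it passed with quantile normalization (0.0481) and without mutant replicate 2 (0.46, 0.0126). AT1G26550, on the other side, had 0.10 (limma adjusted p = 0.451). The ratio of BGLU40 to its neighbours did not change past the test in either case (limma adjusted p = 0.101 with AT1G26550 and 0.690 with AT1G26580). AT3G03620, near BGLU25, and AT3G60110, near BGLU16, had differences of -0.0065 and -0.15. Both were dim, with wild-type means of 3.97 and 3.77, so no ratio to them is given and they cannot serve as unchanged neighbours.

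Genes of pathways known for some enzymes of these families were taken from lists of which few entries carry a name on this array. A listed gene counts as measured only where a probe set names it alone. The other entries may lie among the 8730 tested probe sets without a gene name or those that list several genes. Whether the members themselves act in these pathways was not tested. Each count below stands beside a background of 14% of all probe sets higher and 14.7% lower, and no list is called apart from it. Of 2 measured beta-glucosidase genes listed under other names, PYK10, the main enzyme of endoplasmic reticulum bodies in roots and seedlings, had -0.28 (limma adjusted p = 0.129) and ATA27 0.06 (0.759), and 1 had an unadjusted p below 0.05. In the list of genes for the PYK10 complex and these bodies, 2 of 5 measured genes rose, 0 fell and 3 did not pass. All 5 were dim, and of probe sets not above the array medians 8.3% passed in either direction. JAL33, a jacalin-type lectin gene, rose by 0.44 (limma adjusted p = 0.00494), and JAL23, a lectin gene of the same type, by 0.29 (0.0494). Their wild-type means were 4.01 and 3.91. JAL23 passed in 6 of 13 alternative settings, and failed without mutant replicate 1 (0.27, limma adjusted p = 0.109), mutant replicate 3 (0.26, 0.136), wild-type replicate 1 (0.29, 0.106) or wild-type replicate 2 (0.23, 0.179).

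SCPL acyltransferases use glucose esters of sinapate, a product of phenylpropanoid metabolism. In that list 3 of 5 measured genes fell, 0 rose and 2 did not pass, with a median of -0.45. Of the 5, 3 were above the array medians, where 25% of all probe sets were lower. ALDH2C4, also called REF1, which oxidises aldehydes to ferulate and sinapate, fell from 9.90 ± 0.03 to 8.53 ± 0.11 (SD, n = 3), a change of -1.38 (limma adjusted p = 2.29e-06). HCT, an earlier enzyme of the same route, had a change of -0.51 (limma adjusted p = 0.00617). UGT84A4, a gene of the group that makes hydroxycinnamate glucose esters, changed by -0.45 (0.00781), from means of 4.80 to 4.35, near and below the array medians. Its relatives did not pass: UGT84A3 had 0.24, with its mutant arrays all above wild type (limma adjusted p = 0.112), and UGT84A1 had -0.06 (0.820). The acyltransferase genes SNG1 and SNG2 were not analysed here.

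In the list for coumarin and monolignol glucosides, which also holds flavonol glycosyltransferase genes, 2 of 8 measured genes rose, 2 fell and 4 did not pass. In all 4 of 8 passed, beside 28.6% of all probe sets and 49% of those above the array medians, where 4 of the 8 lay. Of probe sets not above the array medians, 8.3% passed. UGT78D2 and UGT78D1, which attach sugars to flavonols, changed by -1.43 (limma adjusted p = 2.33e-05) and -0.81 (0.000119). AT3G13610, the F6'H1 gene of scopoletin synthesis, rose by 0.95 (limma adjusted p = 4.83e-05). GT72B1, a glucosyltransferase gene also called UGT72B1, rose by 0.57 (0.00308).

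For the abscisic acid list, to which BGLU33 is tied by its reported substrate, none of 3 measured genes passed limma and 0 had an unadjusted p below 0.05. The largest difference was that of UGT71B6, a glucosyltransferase gene for abscisic acid, with 0.17 (adjusted p = 0.434). BRL1 was the single gene of the brassinosteroid signalling list matched to a named probe set, with 0.01 (limma adjusted p = 0.951). The lists for myrosinase partners, sulfur deficiency and dark-induced genes had 0 entries matched to a named probe set.

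Markers of other tissues gave low signal. Of 5 measured root, flower and shoot meristem markers none passed limma, 0 had an unadjusted p below 0.05, and their group means lay between 3.66 and 4.28, below the array medians. EXPA7 had -0.09, AMS -0.02 and CLV3 -0.0067. Of 3 stomatal genes none passed and 0 had an unadjusted p below 0.05, SPCH having -0.09. Of the leaf markers LHCB4.2 rose (0.54, limma adjusted p = 0.000747) and RCA had -0.23 (0.0694), which passed in 3 of 13 alternative settings. In such bulk samples fewer cells of a type and less RNA per cell cannot be told apart, and the part of cell composition in the members' changes was not tested.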

How the data were processed

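Log2 levels of each probe set on 6 arrays were used as the authors deposited them; RMA and Partek are named, without versions, roles or order, per the submitters' processing notes. Their settings are not stated. Of 22810 probe sets, 64 controls were left out. Names came from the probe table, where 13513 probe sets have 1 gene, 503 several and 8730 tested ones none, and from the TAIR10.1 gene table, used for names and gene order. Probe sets with several genes were not used, among them 3 that list family genes. Each of the 26 members has 1 probe set.

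The genotypes were compared with the lmFit and eBayes functions of limma 3.58.1 (R 4.3.3; two-sided), using Benjamini-Hochberg adjustment over 22746 probe sets or over 10216 neighbour pairs and a threshold of 0.05. Both fits were tested on simulated data. Tables and figures used Python 3.11.15, pandas 2.3.3 and matplotlib 3.10.9, with random seed 1. The members and lists were chosen with earlier results of these data known. All members may be named; from each list up to 4 genes past the test with the largest changes are named, or the 1 with the largest change where none passed, while some others were added after their values were seen. The lower-case genes were added after the names were seen.

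Alternatives changed the scaling (quantile normalization or median centring) and the probe sets (without the lowest 30%, or without suffixes of cross-hybridisation). Others changed the fit (robust trended prior, weights per array, or a block for replicate number) and the arrays (each left out in turn). The call (threshold of 0.01, or a 2-fold minimum) and the pairs (up to 5 genes between) were also changed.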

Additional observations from a re-analysis of the deposited data

How the results depend on the processing

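No member past the test changed sign in any alternative. Leaving out 1 array gave 1 to 3 BGLU genes higher (1 without wild-type replicate 1 or without mutant replicate 2), 1 to 2 SCPL genes higher and 1 to 2 lower. At adjusted p 0.01, 1 BGLU gene was higher. With a 2-fold minimum 0 BGLU genes were higher and 0 lower, 0 SCPL genes were lower, and over all probe sets 623 were higher and 518 lower. Read in any case, an alternative chosen after seeing the data, 3 SCPL genes were higher and 5 lower. Neighbour pairs past the test numbered 2239 without the dimmest probe sets and 10254 with up to 5 genes between, where fewer and more pairs were tested. Every member has 1 probe set, so averaging the probe sets of a gene could change nothing for the members, and it was not run.

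Signs changed for dim genes near 0 and for ratios between dim genes. They also changed for the ratio of AT1G26580 to BGLU40, both above the array medians. With array weights BGLU41 had 0.0062, BGLU15 0.022, BGLU28 -0.0038, AMS 0.020, CLV3 0.037 and the ratio of BGLU28 to BGLU15 -0.021; with median centring CLV3 had 0.0035 and AT3G03620 0.0036. Leaving out 1 array gave BGLU41 -0.10 to 0.039, BGLU31 -0.088 to 0.035, BGLU15 -0.10 to 0.027, BGLU28 -0.0425 to 0.070, BGLU32 -0.085 to 0.091, BGLU24 -0.030 to 0.16, SCPL43 -0.064 to 0.075, BRL1 -0.023 to 0.043, AMS -0.14 to 0.06, CLV3 -0.064 to 0.0695 and AT3G03620 -0.053 to 0.025. The ratios of BGLU28 to BGLU15, BGLU32 to BGLU31 and AT1G26580 to BGLU40 ranged from -0.067 to 0.17, -0.12 to 0.14 and -0.27 to 0.14. The cause was not tested.

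Arrays that share a replicate number did not deviate together (r between -0.30 and -0.17). Deviations from a mean of 3 arrays depend on one another, so these values show no pairing but cannot exclude one. With the replicate block 2768 probe sets were higher and 2914 lower, and 3 BGLU genes were higher and 1 lower.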
